A study of Homo sapiens with 12 samples.

Results

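Heterogeneous nuclear ribonucleoproteins (hnRNPs) are abundant RNA-binding proteins that coat nascent transcripts and repress or promote the use of nearby splice sites. Many of their own transcripts carry exons whose inclusion changes the protein, or introduces a premature stop and exposes the transcript to nonsense-mediated decay, by which several hnRNPs are known to limit their own amount. The genes described here are HNRNPA1, HNRNPA2B1, HNRNPC, HNRNPD, HNRNPDL, HNRNPH1, HNRNPK, HNRNPM, HNRNPR and HNRNPLL, 10 genes in all. Their exon events were found by comparing strand and the lengths of the exon and of its neighbouring introns with GENCODE, which gave 183 of the 114816 events in the RNA-seq table and 0 of the 2023 events in the RASL-seq table. An event is an exon together with the neighbouring splice sites between which it is included or skipped, and its inclusion level is the inclusion count over inclusion plus skipping counts of that event, each corrected for length. A read on a junction that several events share counts in each of them, so the level is not a share of all transcripts, and levels of alternative forms of an exon can sum to more than 100%.

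The series compared PC3E and GS689.Li (GS689 below), wild type human lines kept in the same medium with serum and G418 and collected a day after plating. Both are sublines of the PC3 prostate cancer line, PC3E of epithelial and GS689 of mesenchymal character. Each had 3 libraries on a HiSeq (RNA-seq) and 3 on a MiSeq (RASL-seq, which counts ligated probe pairs at splice junctions); nothing in the labels says that the 3 came from separate cultures. The header of the RNA-seq table numbers 2 sets of 3 libraries and names no line, so the 10 genes are described library by library, as set 1 and set 2 with libraries a, b and c in file order, and nothing was tested between the sets.

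Table totals ran from 93842790 to 120853566 counts per RNA-seq library, and since a read can count in several events these are not sequencing depth. In RASL-seq they ran from 615758 to 954120. Marker genes differed widely between the RNA-seq sets. Totals of CDH1 (E-cadherin) ran from 88.4 to 112 CPM (counts scaled by the table total) in set 1 and from 0.597 to 1.34 in set 2, and those of VIM (vimentin) from 49.97 to 64.4 and from 1276 to 1461. FN1 (fibronectin), on the same mesenchymal list, went the other way with overlap, at 415 to 569 in set 1 and 248 to 485 in set 2. In RASL-seq, whose columns name the lines, the VIM total was higher in GS689 than in PC3E (log2 change 4.52). CDH1 and FN1 were not tested there. The sets were not assigned to a line from these values. Library b of set 1 stood apart: it was the highest or lowest of the 6 libraries in 44.9% of the 14624 alternative events of the table, against 28.8% to 33.3% for each other library.

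Coding exons of HNRNPA2B1, HNRNPD, HNRNPH1, HNRNPK and HNRNPM on which the results turn are printed below from GENCODE transcripts, 5′ to 3′ on the transcript strand. Capitals mark the alternative exon and lower case the last and first 12 bases of the neighbouring exons. In HNRNPH1 capitals instead mark the 47 bases that the longer form of an exon has and the shorter one lacks.
HNRNPA2B1 36 nt exon: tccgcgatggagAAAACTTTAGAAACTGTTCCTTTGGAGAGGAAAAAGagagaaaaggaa
HNRNPD 57 nt exon: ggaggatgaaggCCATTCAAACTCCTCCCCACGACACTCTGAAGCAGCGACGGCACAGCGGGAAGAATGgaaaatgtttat
HNRNPD 147 nt exon: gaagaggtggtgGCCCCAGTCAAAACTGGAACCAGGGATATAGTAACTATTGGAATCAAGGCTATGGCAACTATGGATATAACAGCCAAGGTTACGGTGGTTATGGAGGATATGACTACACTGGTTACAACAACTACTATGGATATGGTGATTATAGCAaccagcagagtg
HNRNPH1 139 nt exon: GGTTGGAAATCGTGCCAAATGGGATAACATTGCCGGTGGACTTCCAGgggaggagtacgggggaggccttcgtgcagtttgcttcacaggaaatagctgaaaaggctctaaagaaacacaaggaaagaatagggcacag
HNRNPK 72 nt exon: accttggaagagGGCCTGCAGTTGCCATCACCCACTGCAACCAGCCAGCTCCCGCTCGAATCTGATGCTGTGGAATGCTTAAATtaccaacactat
HNRNPM 54 nt exon: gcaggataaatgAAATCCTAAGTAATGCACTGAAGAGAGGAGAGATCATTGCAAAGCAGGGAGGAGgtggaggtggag

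Of the 183 events, 164 reached 20 counts per library on average and 1 in each library, and 19 did not. Most events were close to full inclusion: the median inclusion over the 6 libraries was above 95% in 134 events and below 5% in 12. The remaining 18 events, of 17 exons in 9 genes, are called alternative below. HNRNPLL had 0 alternative events. In 4 of the 18 the libraries of the sets did not overlap (22.2%), 3 with higher and 1 with lower inclusion in set 2; over all 14624 alternative events of the table the share was 22.8% (9.75% higher in set 2), so the count is near the background. The median difference between the sets was 2.27 percentage points over the 18 events and 4.42 over all. The 18 events had means of 62.7 to 14665 counts per library. All events of the table were taken at the same minimum of 20 counts and were not matched to them in depth. The part of depth in these differences and shares was not tested. The length was a multiple of 3 in 8 of the 18 events (44.4%), against 43.1% of all alternative events.

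**Figure D1:**
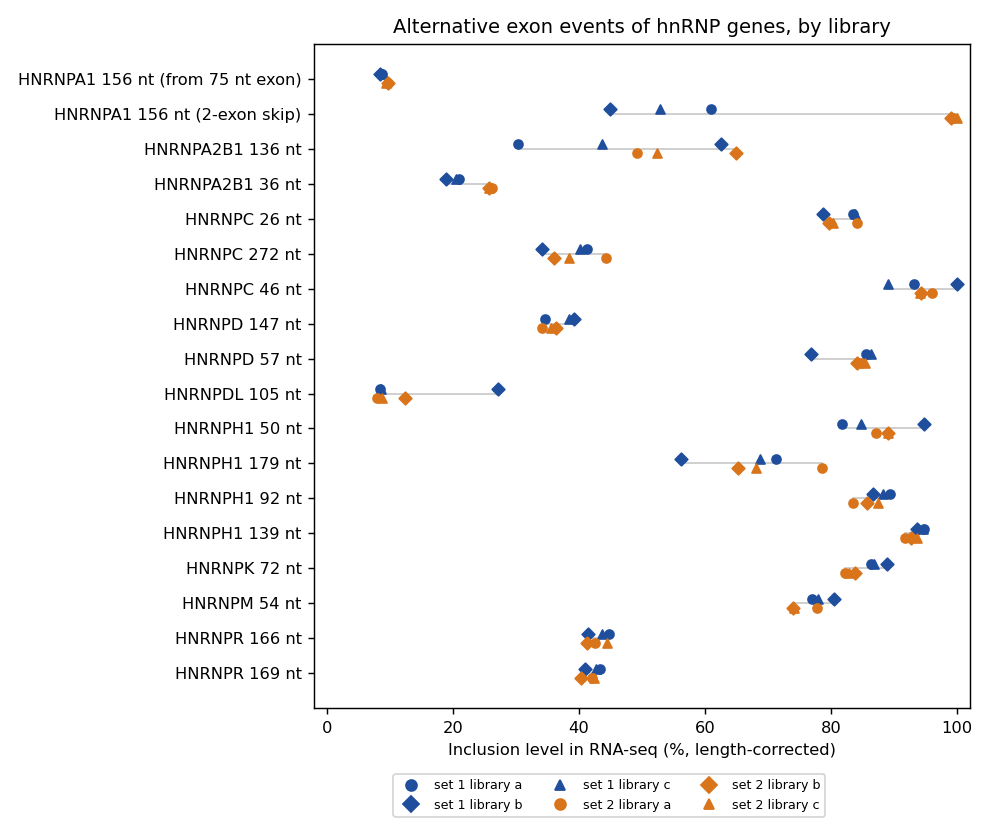
Inclusion level in RNA-seq (x axis, percent) of the 18 alternative events of hnRNP genes (y axis, gene and exon length), with 1 point per library, blue for set 1 and orange for set 2; grey lines span all libraries. The sets lie apart for the 156 nt exon of HNRNPA1 (both events), the 36 nt exon of HNRNPA2B1 and the 72 nt exon of HNRNPK, and set 1 library b (blue diamond) lies away from a and c in several others.

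HNRNPA1 encodes a shuttling protein that represses the inclusion of many exons, and its 156 nt exon (hg19, chromosome 12, 54676863 to 54677018, plus strand, coding) lengthens the glycine-rich part of the protein. Measured from the 75 nt exon upstream, its inclusion level was low. The levels were 8.80%, 8.48% and 8.95% in set 1 libraries a to c and 9.69%, 9.72% and 9.34% in set 2. The sets did not overlap, and their medians differed by 0.89 percentage points. A mean of 10892 counts per library lies behind these levels.

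A different form of HNRNPA1 was found almost only in set 1. A junction that joins the 93 nt exon (ending at 54676449) to the exon starting at 54677596 skips the 75 nt exon (54676584 to 54676658, coding) and the 156 nt exon together, and 0 annotated GENCODE transcripts have it. It had 235, 440 and 336 counts in set 1 and 2, 2 and 0 in set 2. All libraries of set 1 were thus far above all libraries of set 2. Scaled to the table totals, the 1011 counts of set 1 against the 4 of set 2 give a 213-fold ratio (exact 95% interval, 83.0 to 784, for counting error only). Over the table, 192 of 11165 skipping junctions with a mean of at least 20 counts (1.72%) had set medians at least 20-fold apart or a median of 0 in 1 set. Among 7190 such junctions of genes whose totals differed by under 1.5-fold, as those of HNRNPA1 did, 21 had this (0.292%). The comparison was chosen after the values were seen.

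Other junctions that skip exons in the same stretch of HNRNPA1 showed the same pattern at lower counts. The junction from the 93 nt exon to the 156 nt exon had 10, 4 and 5 counts in set 1, and that from the exon before it to the 156 nt exon had 5, 4 and 8. The junction that skips the 93, 75 and 156 nt exons together had 4, 10 and 34 counts. All 3 junctions had 0 counts in each library of set 2. The usual junction from the 75 nt exon to the exon at 54677596 was common throughout, with 10368, 9881 and 10498 counts in set 1 and 8208, 7093 and 8389 in set 2. The lengths of the 93, 75 and 156 nt exons are all multiples of 3.

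**Figure D2:**
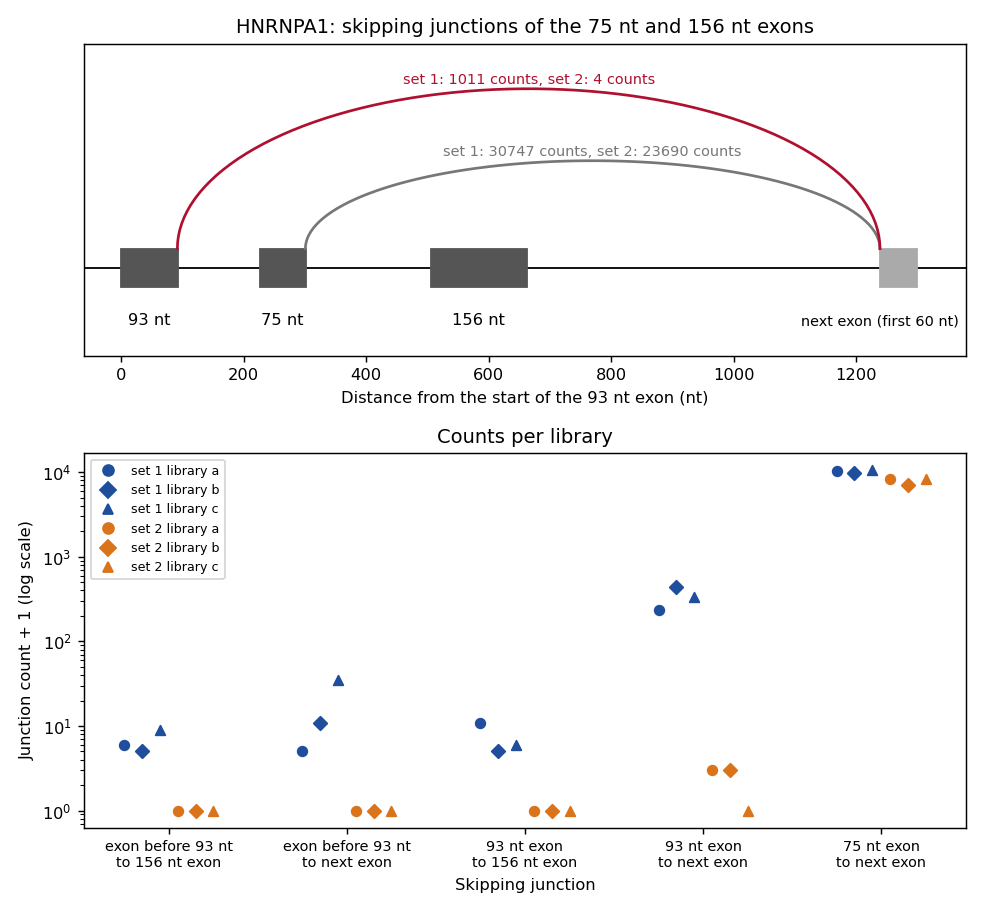
Upper panel, the exons of HNRNPA1 to scale (x axis, nt from the start of the 93 nt exon) with the usual junction (grey arc) and the junction that skips the 75 and 156 nt exons (red arc), each with its summed counts per set. Lower panel, counts plus 1 of 5 skipping junctions (log scale) with 1 point per library; the 4 junctions that skip the 75 nt exon are near or at 0 counts in set 2.

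The same junction sets the inclusion level of the event in which the 156 nt exon is measured from the 93 nt exon. The level was 60.9%, 45.0% and 52.8% in set 1 and 99.3%, 99.1% and 100% in set 2, with medians 46.5 percentage points apart. This does not mean that the exon was used more in set 2: the counts for inclusion came almost all from its downstream junction, which transcripts with the 75 nt exon share. The 75 nt exon itself was included at 97.9%, 96.1% and 97.1% in set 1 and at 99.98%, 99.97% and 100% in set 2. The gene has 74 pseudogenes named after it in GENCODE, more than any other of the 10 genes (0 to 9), and how reads that fit several copies were counted is not given in the sources used here.

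HNRNPA2B1 encodes hnRNP A2 and, where its 36 nt exon near the start of the coding sequence is included, hnRNP B1. The exon (chromosome 7, 26237451 to 26237486, minus strand) was included at 21.0%, 18.9% and 20.6% in set 1 and at 26.3%, 25.7% and 25.7% in set 2. Every library of set 2 was above every library of set 1, and the medians differed by 5.18 percentage points. The event had the most counts of the 18, with a mean of 14665 per library.

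A 136 nt exon of HNRNPA2B1 (26230613 to 26230748) is annotated in 1 transcript, of the nonsense-mediated decay class. Its inclusion was 30.3%, 62.6% and 43.7% in set 1 and 49.3%, 64.9% and 52.3% in set 2. The sets overlapped, and within each set library b was the highest.

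HNRNPD encodes AUF1, which binds AU-rich elements and promotes decay of the mRNAs that hold them, and its isoforms differ by an exon of 57 nt and one of 147 nt. The 57 nt exon (chromosome 4, 83292681 to 83292737, minus strand) was included at 85.5%, 76.8% and 86.3% in set 1 and at 84.7%, 84.1% and 85.4% in set 2. Library b of set 1 was the lowest, and the other 5 lay close together. The 147 nt exon (83277690 to 83277836) was included at 34.6%, 39.2% and 38.5% in set 1 and at 34.1%, 36.4% and 35.6% in set 2, with overlap.

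HNRNPDL encodes a close relative of AUF1. Its 105 nt exon (chromosome 4, 83346716 to 83346820, minus strand) is annotated in 3 transcripts, all of the nonsense-mediated decay class, and its skipping in 5. Inclusion was 8.43%, 27.1% and 8.61% in set 1 and 8.03%, 12.4% and 8.68% in set 2. Library b was the highest in each set, and the other 4 libraries were nearly equal. A 171 nt coding exon of HNRNPDL (83347616 to 83347786) was included at 96.9% to 98.3% over the 6 libraries.

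HNRNPC encodes a protein that binds runs of uridine and covers cryptic splice sites. Its alternative exons lie in the untranslated leader. An exon on chromosome 14 (minus strand) has a 26 nt form (21731470 to 21731495) and a 272 nt form (21731470 to 21731741), measured against the same skipping junction. The forms exclude each other but share the reads of their common junction, so their levels do not add up. The level was 83.5%, 78.8% and 83.8% in set 1 and at 84.2%, 79.7% and 80.3% in set 2 for the short form, and 34.2% to 41.2% and 36.1% to 44.3% for the long form. The sets overlapped for both forms, and library b was the lowest of each set for both. A 46 nt leader exon (21736782 to 21736827), measured between its neighbour and a distant, rarely used splice site, was included at 93.3%, 100% and 89.0% in set 1 and at 96.0%, 94.3% and 94.2% in set 2, at a mean of 62.7 counts per library. Between more used splice sites its level was low. In the event with most counts (mean 6158) it was 1.91%, 0.61% and 1.28% in set 1 and 2.88%, 2.31% and 2.53% in set 2, without overlap. In another event the sets overlapped, at 0.90% to 3.93% and 2.88% to 4.37%.

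Rarer leader exons of HNRNPC were at low levels, without overlap between the sets in some events and with overlap in others. The 163 nt exon (21731826 to 21731988) was included at 2.53% to 3.32% in set 1 and at 4.64% to 5.64% in set 2. For the 168 nt exon (21730760 to 21730927) the ranges were 0.61% to 0.93% and 0.94% to 2.02%, and an 88 nt exon (21704532 to 21704619) went the other way, with 0.81% to 1.18% and 0.60% to 0.76%. Measured to another neighbouring exon, the 88 nt exon overlapped between the sets (1.88% to 3.53% and 1.25% to 2.01%), and leader exons of 63 nt and 47 nt, at 0 counts in most libraries, overlapped too. Over all 164 events of the 10 genes with enough counts, 20 (12.2%) did not overlap, against 9.86% of all 97885 such events in the table.

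HNRNPH1 encodes a protein that binds runs of guanosine in exons and introns. Its 139 nt coding exon (chromosome 5, 179046270 to 179046408, minus strand) was included at 94.8%, 93.7% and 94.7% in set 1 and at 91.7%, 92.7% and 93.7% in set 2. The lowest library of set 1 and the highest of set 2 were almost equal. The 92 nt form of the same exon, which lacks the 47 bases in capitals above, was at 86.6% to 89.3% and at 83.4% to 87.5% against the same skipping junction. The forms exclude each other and share the reads of their common downstream junction, so these levels are not shares of transcripts.

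A 50 nt exon of HNRNPH1 (179042547 to 179042596, partly coding) was included at 81.7%, 94.8% and 84.8% in set 1 and at 87.1%, 89.1% and 89.0% in set 2. Library b of set 1 was above all others, while a and c lay below all of set 2. The 179 nt coding exon (179045146 to 179045324) was at 99.8% to 100% over the 6 libraries in its most covered event, with a mean of 3282 counts per library. In a second event, between other splice sites, it ranged from 56.2% to 71.3% in set 1 and from 65.2% to 78.5% in set 2. The inclusion counts of that event (154, 113 and 154, then 227, 191 and 149) were almost those of the junction that skips the 139 nt exon (153, 111 and 153, then 226, 190 and 149), so this level does not measure the use of the 179 nt exon.

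HNRNPK encodes a KH domain protein that binds runs of cytidine. Its 72 nt coding exon (chromosome 9, 86588817 to 86588888, minus strand) was included at 86.4%, 88.8% and 86.8% in set 1 and at 82.2%, 83.7% and 82.9% in set 2. Every library of set 2 was below every library of set 1, and the medians differed by -3.89 percentage points.

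HNRNPM encodes a protein known to promote the splicing pattern of mesenchymal cells, in part by acting against ESRP proteins on shared exons. Its 54 nt coding exon (chromosome 19, 8548042 to 8548095, plus strand) was included at 77.0%, 80.5% and 78.0% in set 1 and at 77.8%, 74.0% and 74.2% in set 2. Libraries b and c of set 2 were the lowest, and library a lay among those of set 1. Its 45 nt coding exon (8538548 to 8538592) was included at 99.1% to 99.5% in set 1 and at 97.8% to 98.5% in set 2. In its other events with enough counts, of means 1614 and 1970, the sets overlapped, at 99.8% to 100% and 99.5% to 100%.

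HNRNPR encodes a relative of SYNCRIP. A partly coding exon on chromosome 1 (minus strand) has forms of 166 nt (23667345 to 23667510) and 169 nt (23667345 to 23667513), which differ by 3 bases at the acceptor. The 166 nt form was included at 44.8%, 41.5% and 43.7% in set 1 and at 42.6%, 41.2% and 44.4% in set 2. All 6 libraries lay within a narrow range, as they did for the 169 nt form (40.4% to 43.3%). A 177 nt coding exon of HNRNPR (23650049 to 23650225) was at 96.2% to 97.2% in set 1 and at 94.8% to 95.7% in set 2. In its other events, of means 1965 and 1625 counts, the sets overlapped, at 99.0% to 100% and 99.9% to 100%.

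HNRNPLL encodes a regulator known for the skipping of CD45 exons in activated T cells. Its 83 nt exon (chromosome 2, 38805062 to 38805144, minus strand), annotated in 1 nonsense-mediated decay transcript, was included at 4.16% to 6.57% in set 1 and at 2.27% to 7.40% in set 2. Its 119 nt coding exon (38818672 to 38818790) was at 96.5% to 99.7% and at 98.6% to 99.3%. Neither exon set the sets apart.

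**Figure D3:**
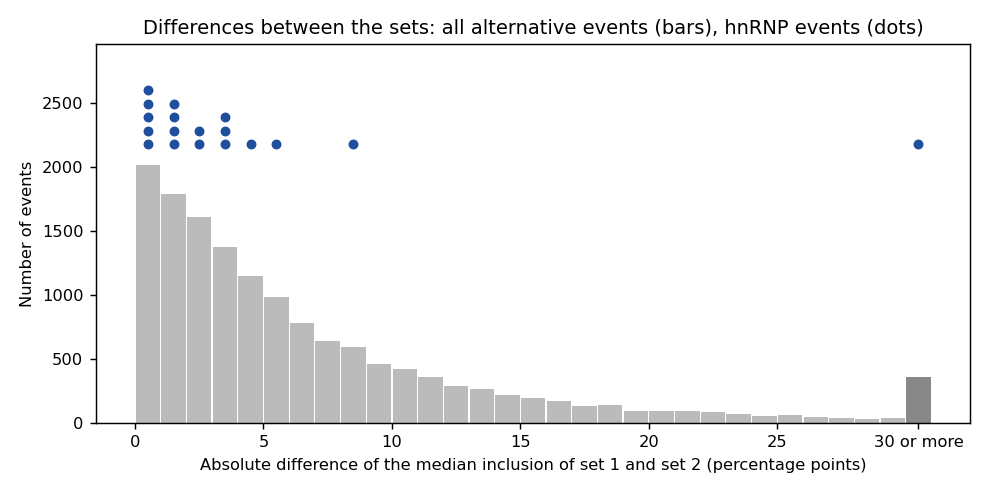
Absolute difference between the median inclusion of set 1 and of set 2 (x axis, percentage points) for all 14624 alternative events of the RNA-seq table (bars, number of events) and for the 18 hnRNP events (dots, 1 per event, stacked by bin, height without scale); the last bar holds differences of 30 or more. The hnRNP dots lie under 10 points except the HNRNPA1 event that the 2-exon skip sets.

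Library b of set 1 often lay at the edge of the 6 libraries. It was the highest or lowest library in 13 of the 18 events, against 44.9% of all alternative events. It lay above the mean of a and c by 25.6 percentage points for the 136 nt exon of HNRNPA2B1, by 18.6 for the 105 nt exon of HNRNPDL and by 11.6 for the 50 nt exon of HNRNPH1. The departures were -13.8 for the 179 nt event of HNRNPH1, -11.9 for the HNRNPA1 event set by the skip of both exons and -9.12 for the 57 nt exon of HNRNPD. Without it the sets did not overlap in 11 of the 18 events, against 35.9% of all alternative events. Library b of set 2 departed from a and c of its set in the same direction as library b of set 1 in 14 of the 18 events, against 55.8% of all; for a the count was 11, against 54.9% of all, and for c 11, against 50.4%. The file does not tie a position in a set to a replicate number. RNA quality and culture were not measured in the files, and their part was not tested.

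Inclusion and skipping counts summed per gene and scaled to the table total showed small differences between the sets. HNRNPDL was higher in set 2 without overlap, with 345, 260 and 335 CPM in set 1 and 413, 430 and 412 in set 2, a difference of medians of 0.30 on the log2 scale. HNRNPA1 was lower in set 2 without overlap, with 1724, 1738 and 1727 against 1672, 1351 and 1572, a difference of medians of -0.14. In the other 8 genes the sets overlapped. Over all 11611 genes with enough counts, 50% did not overlap (29.7% higher in set 2), so 2 of 10 is below the background. With scaling by trimmed means of log ratios, which moved the median difference of all genes from 0.11 to 0.03 on the log2 scale, 5 of the 10 did not overlap, against 50.1% of all genes: HNRNPA1, HNRNPC, HNRNPD and HNRNPK lower and HNRNPDL higher in set 2. From skipping counts alone HNRNPK and HNRNPLL were higher in set 2, HNRNPA1 and HNRNPD were lower, and the other genes, HNRNPDL among them, overlapped. The skipping counts of HNRNPK were almost all of the junction that skips its alternative exon. That junction had 7.26, 5.73 and 7.67 CPM in set 1 and 10.4, 9.05 and 8.56 in set 2. Inclusion of the exon was lower in set 2, so these counts do not measure the gene total alone. Those of HNRNPLL were almost all of the junction that skips its 83 nt exon. It had 3.74, 2.79 and 3.29 CPM in set 1 and 4.05, 4.38 and 3.83 in set 2. The usual HNRNPA1 junction overlapped between the sets, at 95.2, 87.7 and 86.9 CPM and 87.5, 71.5 and 87.8. The junction that skips its 75 and 156 nt exons counts in an event of each. That junction had 2.16, 3.91 and 2.78 CPM in set 1 and at most 0.0213 in set 2. Fewer cells of a kind and less RNA per cell cannot be told apart in such totals.

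Library b of set 1 had the lowest total in 6 of the 10 genes, against 31.9% of all genes. For HNRNPH1 the totals were 544, 328 and 494 CPM in set 1 and 623, 563 and 510 in set 2, so that library b was the lowest and the other 5 overlapped. For HNRNPM they were 782, 513 and 786 and 722, 595 and 691, with library b again the lowest. HNRNPK varied least, from 812 to 881.

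**Figure D4:**
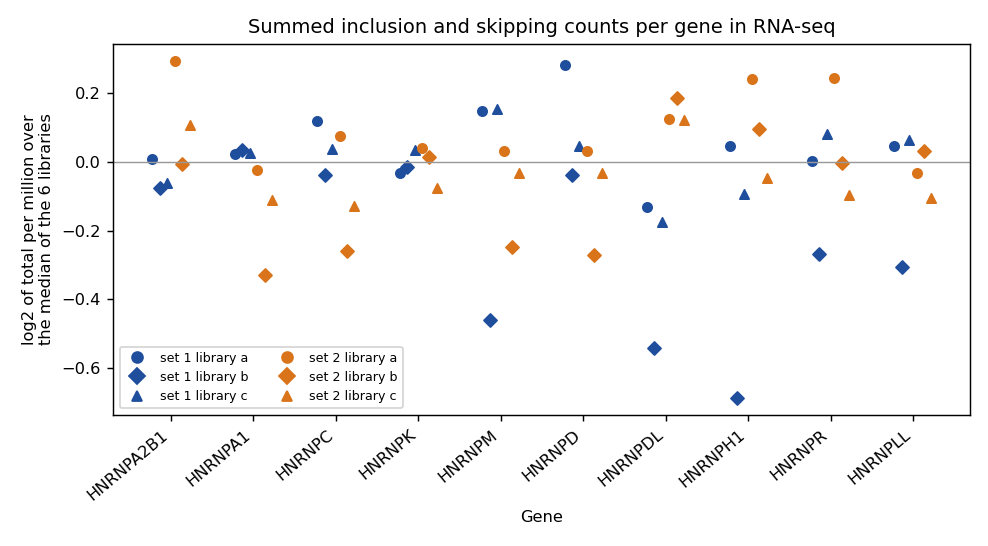
Summed counts per gene in RNA-seq, as the log2 of the CPM over the median of the 6 libraries (y axis), for the 10 hnRNP genes (x axis), 1 point per library, blue for set 1 and orange for set 2. HNRNPDL lies higher and HNRNPA1 lower in set 2, and set 1 library b (blue diamond) is low for HNRNPM, HNRNPDL and HNRNPH1.

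To order the genes, the inclusion count of each gene's most covered exon was divided by its effective length, as CPM for each 100 positions. HNRNPA2B1 was the highest, at 173 to 240 over the 6 libraries, followed by HNRNPA1 at 97.9 to 128, HNRNPC at 68.4 to 83.6 and HNRNPK at 52.3 to 58.8. HNRNPM (26.7 to 43.1), HNRNPD (23.8 to 38.4), HNRNPDL (21.2 to 32.1) and HNRNPH1 (21.2 to 30.1) overlapped. HNRNPR stood at 14.7 to 20.9 and HNRNPLL at 3.74 to 4.86. The neighbours in this order did not overlap, except for the 4 genes from HNRNPM to HNRNPH1. Since the most covered exon was taken, the levels are upper values for each gene.

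For other hnRNP genes the lines themselves could be compared, in RASL-seq. Of a list of 28 family genes, 10 had 12 events and 8 had the 10 tested ones. Between PC3E and GS689, 0 of the 10 events were called changed, against 5.87% of all 1124 tested events. The absence of a call does not show equal inclusion. An event counted as changed at an adjusted p under 0.05 in a limma-moderated quasi-binomial model together with a shift of 5 percentage points or more. An unadjusted p under 0.05 in that model was seen in 3 of the 10 events. The share of all tested events at this limit was not counted, so the 3 have no background beside them. The lowest p was that of a 34 nt exon of PTBP2, with a mean of 114 counts per library. It stood at 51.4% ± 12.7 in PC3E and 72.1% ± 3.04 in GS689 (SD, n = 3 per line, limma-moderated adjusted p = 0.0564). With limma applied to log2 count ratios, 0 of the family events were called. The largest difference was that of an exon of MATR3, a nuclear matrix protein, which stood at 64.1% ± 11.3 in PC3E and 34.1% ± 13.8 in GS689 (SD, n = 3 per line; limma-moderated adjusted p = 0.332), at a mean of 11.7 counts per library.

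Gene totals in RASL-seq were tested for 9 family genes with limma-voom, and 1 was higher and 2 were lower in GS689, against 29.8% changed (16.4% higher and 13.4% lower) of all 1317 genes or unnamed events tested. RALY, a relative of hnRNP C, rose from 928 ± 62.7 to 1313 ± 198 CPM (SD, n = 3 per line; log2 change 0.49, SE 0.138, limma-voom adjusted p = 0.0223). MATR3 fell from 219 ± 23.6 to 137 ± 10.7 (log2 change -0.67, SE 0.166, limma-voom adjusted p = 0.0108) and EWSR1, a FET family protein, from 21827 ± 607 to 17267 ± 983 (log2 change -0.34, SE 0.0968, limma-voom adjusted p = 0.0221). The calls were lost without PC3E replicate 1 (adjusted p = 0.0511), PC3E replicate 3 (0.0529) or GS689 replicate 3 (0.0791) for RALY, without GS689 replicate 1 (0.0524) for MATR3, and without PC3E replicate 3 (0.0719), GS689 replicate 1 (0.113) or GS689 replicate 2 (0.0596) for EWSR1. With skipping counts alone MATR3 (log2 change -0.53, limma-voom adjusted p = 0.595) and EWSR1 (log2 change -0.68, limma-voom adjusted p = 0.0900) did not pass. RALY was not tested at that setting. Since separate cultures are not stated, these p-values reflect library spread that may be technical.

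In RNA-seq, 24 of the family genes had 305 events, 32 of them alternative. The sets did not overlap in 13 of these (40.6%), 5 with higher and 8 with lower inclusion in set 2, against 22.8% of all alternative events. The 13 events are not 13 separate exons. Some of those in RALY, PTBP3 and PTBP1 are of the same exon or of forms of it with a common end, so they are not independent. A 48 nt exon of RALY (mean 2777 counts) was at 77.1% to 79.6% in set 1 and 65.8% to 67.4% in set 2. A 78 nt form of a PTBP1 exon (mean 3375) was at 59.5% to 69.2% and at 78.3% to 88.4%. For a 39 nt exon of PCBP2 (mean 7073) the ranges were 70.7% to 77.1% and 69.1% to 69.6%. The largest difference was in RALY, where a 114 nt exon (chromosome 20, 32664508 to 32664621) was included at 100%, 96.7% and 100% in set 1. In set 2 it was at 64.1%, 71.4% and 82.6%, with a mean of 36.8 counts per library. Measured between other splice sites, the same exon was at 53.8%, 57.5% and 66.7% in set 1 and at 44.4%, 33.3% and 25% in set 2. That event had a mean of 30 counts, so the level depends on the splice sites used. In RASL-seq, mean inclusion in PC3E and GS689 was 99.7% and 98.5% for the 48 nt exon of RALY. It was 6.99% and 11.6% for the 78 nt form of PTBP1, and 73.6% and 70.4% for the 39 nt exon of PCBP2. For the exons of RALY and PTBP1 these levels lie far from those of RNA-seq, and the cause was not tested.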

How the data were processed

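RNA-seq and RASL-seq were analysed from 1 table each. The authors deposited whole-number counts: per the file headers, 3 inclusion and 3 skipping counts per cell for each RNA-seq set, with an effective length of 101 positions for skipping and 102 to 202 for inclusion, and a pair of counts per library in RASL-seq. The submitters' processing notes name hg19, kallisto 0.43.0 and STAR 2.5.2a, without the role of each. Coordinates are on hg19 as deposited, with the first base numbered 1. Events were named through GENCODE release 29, on another build, by structure alone; 109246 RNA-seq events matched 1 gene, and 0 events of the 10 genes matched another. Exon sequences and coding status come from the same annotation; some sequences and marker genes are not reported here. Empty RASL-seq cells were read as 0. The first count of a pair was taken as inclusion (r = 0.83 with RNA-seq inclusion across 1966 events, which are not independent replicates).

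RASL-seq inclusion was tested with a quasi-binomial model per event, dispersions moderated by limma 3.58.1 in R 4.3.3 and held at 1 or above, on events with a mean of at least 10 counts, at least 1 per library and 10 of the rarer form. Totals were tested with limma-voom after scaling by trimmed means of log ratios, on genes with about 10 counts in at least 3 libraries and 15 in all. P-values were adjusted by Benjamini-Hochberg over all features. The models were tested on simulated data. Tests between the lines for the 10 genes could not be run, because their events are in the RNA-seq table alone, whose header names no line. Every alternative event of the 10 genes is named. Other family genes are named where they passed, had the largest difference or the lowest p, or had several events of an exon. Family exons tested in RASL-seq whose RNA-seq sets did not overlap are given too. The rule for genes of like RASL-seq pattern gave none, since the 10 genes have no RASL-seq event. The members and lists were chosen with earlier results of these data known. No columns of per-sample values were left unused.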

Additional observations from a re-analysis of the deposited data

How the results depend on the processing

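RASL-seq inclusion calls numbered 66 of 1124 events. The count was 25 with limma on the log2 ratio at a pseudocount of 0.5 and 5 with no filter beyond 1 count in each library, where 1890 events were tested; the cause of the latter was not tested. Leaving out 1 library gave 46 to 86. RASL-seq total calls numbered 393, 242 with skipping counts alone (905 genes tested), and 251 to 441 without 1 library, the lowest without GS689 replicate 1. With a replicate block the counts were 88 and 465. Same-numbered libraries of the lines deviated together in totals for replicates 1 (r = 0.27) and 2 (0.17) and not 3 (-0.01), so the numbers were not taken as pairs; the block changed none of the calls named for RALY, MATR3 and EWSR1.

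The count of hnRNP events whose RNA-seq sets did not overlap was 4 of 18, against 22.8% of all alternative events. It was 5 of 19 without length correction and 4 of 17 with at least 100 counts. With no limit on inclusion it was 20 of 164 (12.2%), against 9.86% of all events. Leaving out 1 library gave 4 to 11 of the 18. The highest was without set 1 library b, where the share of all alternative events was 35.9%. At the other settings the share over all events was not counted. For gene totals the count was 2 of 10, against 49.97% of all genes, 5 with scaling by trimmed means (50.1% of all), 4 with skipping counts alone (34.5%) and 2 to 5 without 1 library (53.6% to 63.1%), with 4 without set 1 library a (57.0%) and 5 without set 1 library b (63.1%). With skipping counts alone HNRNPK was higher in set 2, while the scaled total was lower. Those skipping counts were almost all of the junction that skips its alternative exon, whose inclusion was lower in set 2. HNRNPDL overlapped with skipping counts alone. No paired analysis was possible for RNA-seq because its columns carry no replicate numbers.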
